A study of Drosophila melanogaster with 24 samples.

Results

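The genes described are 10 classical learning and memory genes of Drosophila melanogaster: rut, dnc, amn, the protein kinase A genes Pka-C1, Pka-R1 and Pka-R2, CrebB, orb2, CaMKII and Nf1. They were taken as the rows of the expression table whose FlyBase identifier carries one of these symbols. All 10 were found among the 17559 genes of the table, and all 10 passed the filter on low values. RNA was measured in single heads of virgin male flies from a male courtship suppression experiment. The groups were 1X trained, 1X mock, 3X trained and 3X mock, with 6 flies each and 1 head per library. Males were kept singly after eclosion and trained on the fifth day. A 1X trained male spent 1 session of 2 h with a mated, unreceptive female. A 3X trained male spent 3 such sessions with her, with gaps of 30 min. Mock males went through the same handling with no female present, and every head was collected 1 h after the last session. The strain of the sequenced flies is not given in the sources used here. Training against mock asks what changed with the female. The comparison of 1X with 3X asks what changed with repetition together with the later collection of the 3X flies after the start of training.

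As background, some of these genes were found through flies that could not learn or remember. The product of rut, an adenylyl cyclase stimulated by calcium and calmodulin, makes cyclic AMP (cAMP), which the phosphodiesterase encoded by dnc breaks down. amn encodes a neuropeptide precursor related to peptides that raise cAMP. cAMP binds the regulatory subunits of protein kinase A (Pka-R1 and Pka-R2), which then release the catalytic subunit (Pka-C1). Transcription factors of the CREB family (CrebB) are phosphorylated downstream, and long-lasting memory needs new transcription and translation. Orb2 is a cytoplasmic polyadenylation element binding protein that acts on the translation of synaptic mRNAs. It is known for its part in long-term memory of courtship suppression. CaMKII, the calcium/calmodulin-dependent protein kinase II, and Nf1, the Ras GTPase-activating protein neurofibromin, which also affects cAMP signalling, act in the same neurons.

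Levels were RPKM values, read numbers divided by gene length and library size. A gene was tested if it reached 1 RPKM in 6 or more flies, which left 10547 genes. Libraries held 18910097 to 41358909 reads, as recovered from the RPKM values, and the members had between 206 reads (amn) and 13824 reads (Pka-C1) in a fly. With no molecular identifiers on the reads, these numbers speak to counting error alone. The 7 neuronal marker genes were above 1 RPKM in every group and summed to between 353 and 422 RPKM in a fly. A pair of flies stood apart. In 3X mock replicate 6 the 10 testis marker genes summed to 110 RPKM, against at most 1.18 RPKM in any other fly. 1X trained replicate 1 had the lowest weight of all flies in a fit that weights flies by how closely they follow their group (0.251, with 0.609 to 1.54 in the others). In these whole heads, fewer cells of a type and less RNA per cell cannot be told apart. RPKM values are per gene, so the isoforms of a gene such as orb2 were not separated.

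The members spanned a wide range of levels. Pka-C1 was the highest at 55.9 ± 2.54 RPKM (mean ± SD over all 24 flies), above 91.6% of the genes in the table. CaMKII followed at 46.5 ± 3.00 RPKM. The regulatory subunits were nearly equal, with Pka-R2 at 25.5 ± 1.51 RPKM and Pka-R1 at 25.0 ± 2.12 RPKM, and Pka-R2 was the higher of the pair in 14 of 24 flies. Next came orb2 at 13.5 ± 1.25 RPKM and dnc at 12.3 ± 0.750 RPKM, and orb2 exceeded dnc in 18 of 24 flies. CrebB (9.95 ± 0.633 RPKM) exceeded rut (8.21 ± 0.517 RPKM) in 22 of 24 flies. Nf1 (4.11 ± 0.408 RPKM) and amn (3.12 ± 0.286 RPKM) were the lowest. Between all other neighbours in this order the higher gene was higher in 24 of 24 flies, although the ranges of Pka-C1 and CaMKII, of dnc and CrebB, and of Nf1 and amn overlapped between flies.

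**Figure D1:**
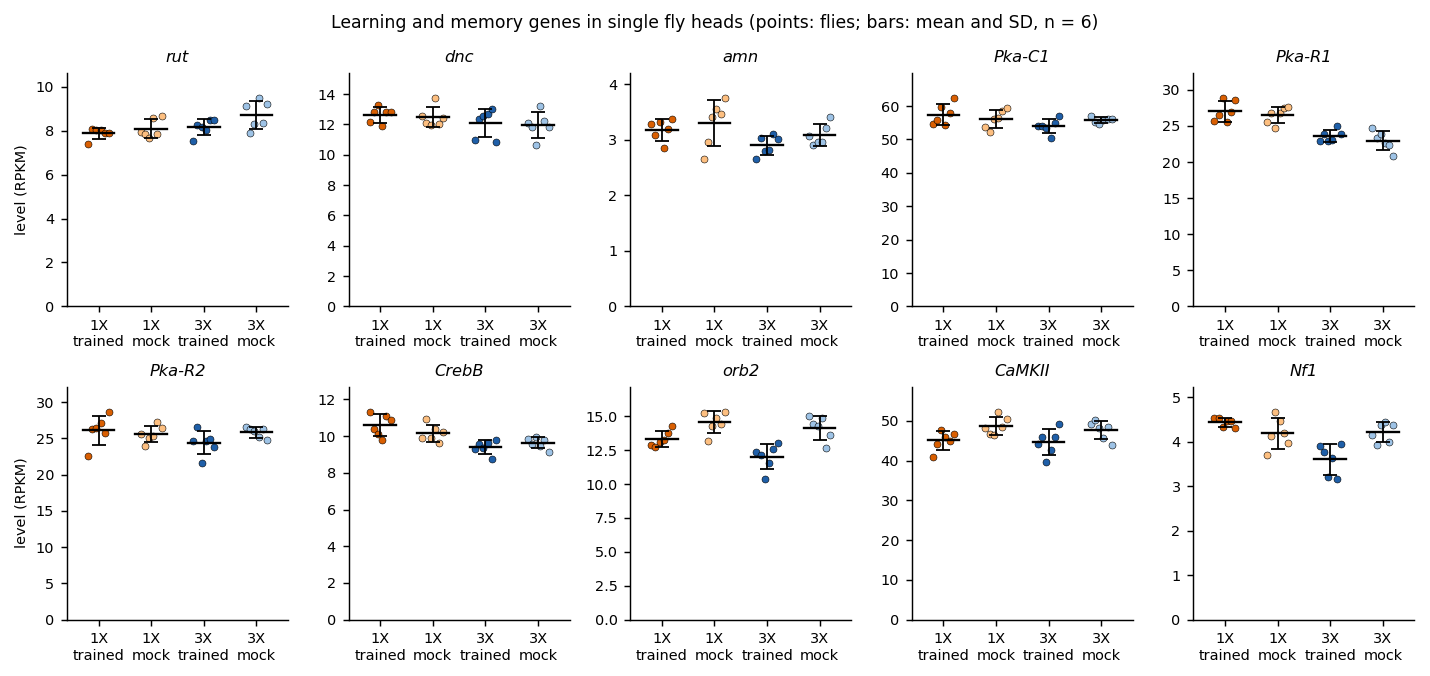
Level of each of the 10 members in RPKM (vertical axes, from 0) in 1X trained, 1X mock, 3X trained and 3X mock flies; points are single flies, and bars show the mean and SD of 6 flies. The groups lie close together for most members; orb2 averaged 12.0 RPKM in 3X trained and 14.1 RPKM in 3X mock flies, and Pka-R1 was near 23 RPKM in both 3X groups.

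After training, a single member passed the threshold. This was orb2, which fell after 3X training. After 1X training none of the 10 members was called at a limma adjusted p below 0.05, and 2 had an unadjusted p below 0.05 (orb2 and CaMKII, both lower in trained flies). In that comparison 4.94% of all genes tested were called. After 3X training 1 of 10 members was called, and 2 had an unadjusted p below 0.05 (orb2 and Nf1), where 2.27% of all genes were called. For the difference between the 3X and the 1X effect, none was called and 1 (Nf1) had an unadjusted p below 0.05, with 0.171% of all genes called. In no member did the 6 trained flies all lie outside the range of the 6 mock flies of the same schedule, which was so for 3.89% of all genes after 1X and 2.46% after 3X. With 10 members, a count of 0 or 1 is near these shares of all genes. At an unadjusted p below 0.05 there were 20.8% of all genes after 1X, 21.2% after 3X and 11.6% for the difference. The 2, 2 and 1 members at that level are near those shares too.

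The sizes of the changes were small throughout. After 3X, 8 of 10 members were lower in trained flies, with a median change of -0.07 on the log2(RPKM + 1) scale, and 47.1% of all genes were lower, with a median of 0.01. After 1X, 4 of 10 members were lower, with a median change of 0.02, against 49.2% of all genes and a median of 0.00. Changes on this scale understate those of genes with low levels, such as amn and Nf1.

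**Figure D2:**
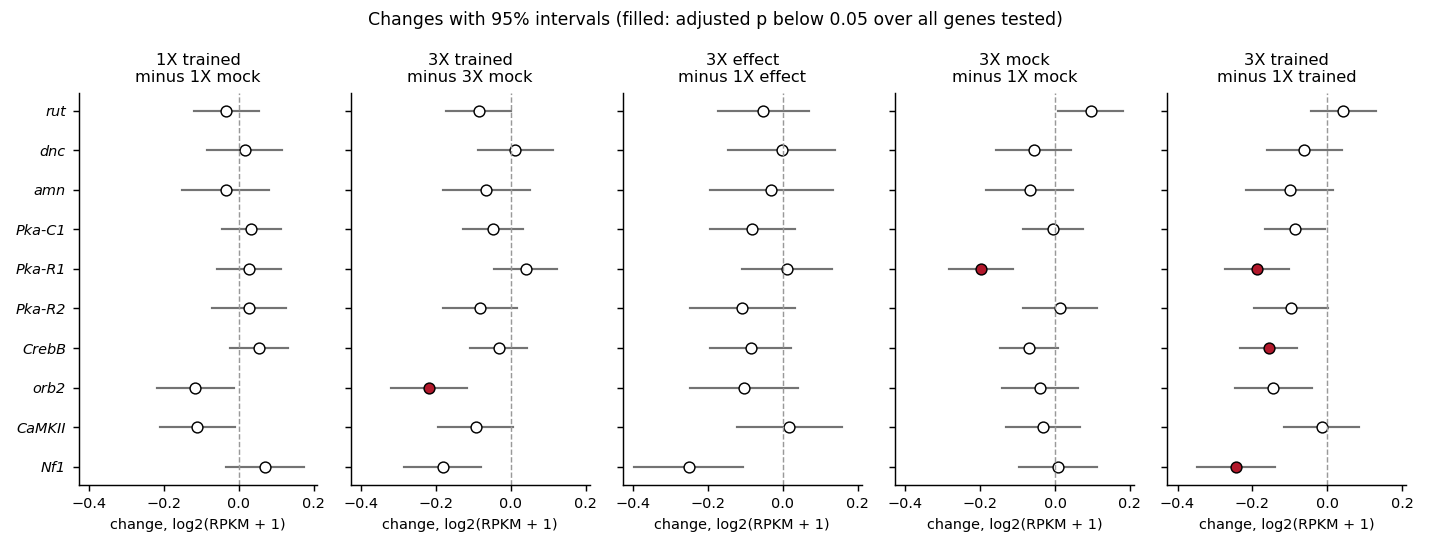
Change of each member on the log2(RPKM + 1) scale (horizontal axes) with its 95% interval in 5 comparisons; filled points passed an adjusted p of 0.05 over all genes tested. Filled points stand at orb2 (-0.22) after 3X training, at Pka-R1 (-0.20) between the mock groups, and at Pka-R1 (-0.19), CrebB (-0.16) and Nf1 (-0.24) between the trained groups.

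The enzymes of cAMP turnover and amn did not pass the test after either training. For rut (FBgn0003301, dm6 chromosome X, 14787478 to 14826073) the lowest, median and highest values were 7.40, 7.96 and 8.07 RPKM in 1X trained flies, against 7.68, 7.91 and 8.66 RPKM in 1X mock flies. After 3X they were 7.52, 8.21 and 8.50 RPKM in trained flies, against 7.87, 8.73 and 9.48 RPKM in mock flies. The groups overlapped in both. The change of rut was -0.03 ± 0.04 (SE) after 1X, with a limma adjusted p of 0.709, and -0.09 ± 0.04 after 3X, with an adjusted p of 0.239. dnc (FBgn0000479, chromosome X, 3176440 to 3343767) changed by 0.02 ± 0.05 with 1X training and by 0.01 ± 0.05 with 3X training (SE, limma adjusted p 0.895 and 0.924), and the 95% interval of the 3X change ran from -0.09 to 0.11. For amn (FBgn0086782, chromosome X, 19886108 to 19890060), the mean was 2.91 ± 0.170 RPKM in 3X trained flies, against 3.09 ± 0.193 RPKM in their mock group (SD, n = 6 each). This was a change of -0.07 ± 0.06 (SE, limma adjusted p 0.530). Libraries did not mark strand. Some reads of rut, amn and CrebB therefore cannot be told from those of a gene on the other strand, since 420 exonic bases of rut are shared with lncRNA:CR45522, 140 of amn with Hers and 344 of CrebB with por.

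The 3 protein kinase A genes did not pass the test after training. Pka-C1 (FBgn0000273, chromosome 2L, 9682315 to 9699297) had 50.5, 54.1 and 57.1 RPKM in 3X trained flies (lowest, median, highest), against 54.8, 55.9 and 57.1 RPKM in 3X mock flies. Of the 6 trained flies, 4 were below the lowest mock fly, yet the change was only -0.05 ± 0.04 (SE, limma adjusted p 0.509). For Pka-R2 (FBgn0022382, chromosome 2R, 9993890 to 10026042) the mean was 24.4 ± 1.60 RPKM in 3X trained flies, against 25.8 ± 0.751 RPKM in their mock group (SD, n = 6 each), and the change was -0.08 ± 0.05 (SE, limma adjusted p 0.331). Pka-R1 (FBgn0259243, chromosome 3L, 20816118 to 20836048) changed by 0.03 ± 0.04 with 1X training and by 0.04 ± 0.04 with 3X training (SE, limma adjusted p 0.762 and 0.625). It was called between the schedules in both mock and trained flies, as described further on.

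CrebB (FBgn0265784, chromosome X, 18366357 to 18377864), whose isoforms include activators and repressors of CREB target genes, had 9.80, 10.6 and 11.3 RPKM in 1X trained flies (lowest, median, highest), against 9.61, 10.1 and 10.9 RPKM in 1X mock flies. After 3X it had 8.74, 9.48 and 9.78 RPKM in trained flies, against 9.16, 9.69 and 9.96 RPKM in mock flies. The groups overlapped in both schedules. The 1X change was 0.05 ± 0.04 and the 3X change -0.03 ± 0.04 (SE, limma adjusted p 0.433 and 0.656).

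orb2 (FBgn0264307, chromosome 3L, 8937100 to 8954463) fell after 3X training. Its lowest, median and highest values were 10.4, 12.3 and 13.001 RPKM in 3X trained flies, against 12.7, 14.4 and 15.1 RPKM in 3X mock flies. Of the 6 trained flies, 5 were below the lowest mock fly, and all 6 were below the mock mean. The change was -0.22 ± 0.05 (SE) with a limma adjusted p of 0.0274. After 1X the values were 12.8, 13.2 and 14.3 RPKM in trained flies, against 13.2, 14.6 and 15.4 RPKM in mock flies. All 6 of these trained flies were also below the mock mean, but the change of -0.12 ± 0.05 did not pass (SE, limma adjusted p 0.176). The 3X and the 1X effect were not shown to differ, with a difference of -0.10 ± 0.07 and a limma adjusted p of 0.597.

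The orb2 call was close to the threshold. It held in 19 of 24 fits that left out 1 fly each, with changes of -0.25 to -0.18, and was lost without 3X trained replicate 3 (limma adjusted p 0.0849) and without 3X mock replicates 1, 2, 3 or 4 (adjusted p 0.0652, 0.0554, 0.0595 and 0.0549). In a fit of the 12 3X flies alone the change was again -0.22, with a limma adjusted p of 0.0774. Without 3X mock replicate 6 it was -0.23 with an adjusted p of 0.0438. An annotated neighbour on the same strand, CG43783 (FBgn0264305), shares 1319 exonic bases with orb2, 14.8% of the exonic bases of orb2. It moved with it. CG43783 averaged 22.6 ± 1.56 RPKM in 3X trained flies, against 26.4 ± 1.45 RPKM in their mock group (SD, n = 6 each), and changed by -0.22 ± 0.05 (SE, limma adjusted p 0.0213). How reads in the shared bases were assigned is not given in the sources used here, so the values of orb2 and CG43783 cannot be taken as independent of each other.

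CaMKII (FBgn0264607, chromosome 4, 1035288 to 1053703) was lower in trained flies in both schedules, short of the threshold. It had 40.9, 45.4 and 47.8 RPKM in 1X trained flies (lowest, median, highest), against 46.4, 48.3 and 52.4 RPKM in 1X mock flies. After 3X it had 39.7, 45.2 and 49.3 RPKM in trained flies, against 44.1, 48.3 and 50.3 RPKM in mock flies. The 1X change was -0.11 ± 0.05 and the 3X change -0.09 ± 0.05 (SE, limma adjusted p 0.186 and 0.267).

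Nf1 (FBgn0015269, chromosome 3R, 25983013 to 25995737) had the second lowest adjusted p among the members after 3X. Its lowest, median and highest values were 3.15, 3.70 and 3.95 RPKM in 3X trained flies, against 3.93, 4.27 and 4.44 RPKM in 3X mock flies. In 5 of 6 trained flies it was below the lowest mock fly. The change of -0.18 ± 0.05 missed the threshold (SE, limma adjusted p 0.0531), and passed it after median-ratio scaling (adjusted p 0.0459), after quantile normalization (0.0490) and in 5 of 24 fits without 1 fly. After 1X the values were 4.31, 4.46 and 4.54 RPKM in trained flies, against 3.70, 4.16 and 4.68 RPKM in mock flies, with every trained fly inside the mock range. The change was 0.07 ± 0.05 (SE, limma adjusted p 0.458). Of all members, Nf1 had the largest difference between the 3X and the 1X effect, -0.25 ± 0.07 (SE, 95% interval -0.40 to -0.11). Its unadjusted p was 0.00169 and its limma adjusted p 0.132. With voom on the recovered reads and their plain totals it passed (adjusted p 0.0471). The Nf1 values rest on 821 to 1713 reads per fly over 10064 exonic bases.

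The schedules differed in Pka-R1 in mock flies, and in Pka-R1, CrebB and Nf1 in trained flies. In mock flies 1 of 10 members was called between 3X and 1X, Pka-R1, against 4.34% of all genes. In no member did these groups avoid each other's range, which was so for 4.28% of all genes. In trained flies 3 of 10 were called, Pka-R1, CrebB and Nf1, all lower after 3X, against 11.1% of all genes. In these same 3 members the 3X trained flies all lay below the lowest 1X trained fly, a separation in either direction that 4.28% of all genes showed. At an unadjusted p below 0.05 there were 2 members in the mock and 5 in the trained comparison, with 16.9% and 26.2% of all genes. More genes of the whole table passed between the trained groups as well. The 3X flies were collected later after the start of training than the 1X flies. The clock gene tim moved with that, with 94.3 ± 14.1 RPKM in 3X trained and 10.2 ± 1.77 RPKM in 1X trained flies, and at 109.7 ± 9.85 RPKM in 3X mock flies, against 14.6 ± 4.47 RPKM in the 1X mock group (SD, 6 flies a group). Repetition of the session and time of collection cannot be told apart in these comparisons.

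Pka-R1 was lower in the 3X groups whether or not a female had been present. Its lowest, median and highest values were 20.9, 22.96 and 24.7 RPKM in 3X mock flies, against 24.7, 26.8 and 27.7 RPKM in 1X mock flies. In trained flies they were 22.97, 23.4 and 25.0 RPKM after 3X, against 25.6, 26.7 and 28.8 RPKM after 1X. The mock groups met only at their edge, and the trained groups did not overlap. The change was -0.20 ± 0.04 in mock flies (SE, limma adjusted p 0.00496) and -0.19 ± 0.04 in trained flies (adjusted p 0.00458). Both calls held in 24 of 24 fits without 1 fly. With voom on the recovered reads and their plain totals, the Pka-R1 call between the mock groups was lost (change -0.17, adjusted p 0.0686).

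CrebB and Nf1 passed between the trained groups alone. For CrebB the change was -0.16 ± 0.04 in trained flies (SE, limma adjusted p 0.00829) and -0.07 ± 0.04 in mock flies (adjusted p 0.354). For Nf1 it was -0.24 ± 0.05 in trained flies (SE, limma adjusted p 0.00261) and 0.01 ± 0.05 in mock flies (adjusted p 0.964). Passing in one pair of groups does not show a difference from the other pair. The test of that difference is the same as that between the 3X and the 1X effect, and gave a limma adjusted p of 0.552 for CrebB and 0.132 for Nf1. In the fit of the 12 trained flies alone the CrebB call was lost (adjusted p 0.0543). orb2 was lower by the same comparison, 12.0 ± 0.922 RPKM in 3X trained against 13.4 ± 0.594 RPKM in 1X trained flies (SD, 6 a group), with a change of -0.14 ± 0.05 that did not pass (SE, limma adjusted p 0.0622). Without 1X trained replicate 1, 5 members were called in trained flies, the additional genes being orb2 and Pka-R2, and 2 were called after 3X training, orb2 and Nf1.

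Ratios of 2 members within a fly do not depend on the scaling of the library. 3 of them were compared in 4 pairs of groups by exact two-sided permutation tests over all splits of 6 against 6 flies, 12 tests in all with a smallest possible p of 0.00216. The ratio of the cAMP-making rut to the cAMP-degrading dnc was 0.729 in 3X mock flies, against 0.649 in the 1X mock group (geometric means). The log2 difference was 0.17, with an exact permutation p of 0.00649, adjusted 0.0390. The call was lost when group medians replaced means (adjusted permutation p 0.0779) and in 7 of 24 sets without 1 fly, those without 1X mock replicate 1, 2, 4 or 5 or 3X mock replicate 1, 4 or 6 (adjusted permutation p 0.0519 to 0.0649). With medians, different splits tie at the largest difference, which raises the smallest possible p above that for means. The loss by medians therefore does not decide whether the call is weak. In trained flies the ratio was 0.676 after 3X and 0.625 after 1X, a log2 difference of 0.11 (exact permutation p 0.0303, adjusted 0.0727). On the log2 scale it differed by -0.05 between 1X trained and mock and by -0.11 between 3X trained and mock flies (exact permutation p 0.128 and 0.104, adjusted 0.185 and 0.178).

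The ratio of the regulatory subunits, Pka-R2 to Pka-R1, was 1.13 in 3X mock flies, against 0.967 in the 1X mock group. All 6 flies of the 3X mock group, at 1.08 to 1.18, lay above all 6 of the 1X mock group, at 0.896 to 1.02. The log2 difference was 0.22, with an exact permutation p of 0.00216, the smallest possible, and 0.0260 after adjustment. Between these groups Pka-R1 changed by -0.20 and Pka-R2 by 0.01 (limma adjusted p 0.00496 and 0.934). The ratio difference is therefore not separate from the Pka-R1 call. The ratio call was kept in 24 of 24 sets without 1 fly. With medians in place of means it did not pass (adjusted permutation p 0.0779), although the groups were fully separated. The higher smallest p of the test by medians limits this check too. After 3X training the ratio was 1.03 in trained and 1.13 in mock flies, a log2 difference of -0.13 (exact permutation p 0.0130, adjusted 0.0519). In trained flies it was 1.03 after 3X and 0.966 after 1X, a log2 difference of 0.09 that did not pass (exact permutation p 0.0974, adjusted 0.178), and 1X trained and mock flies differed by -0.0010 (exact permutation p 0.987). The ratio of the catalytic subunit to the summed regulatory subunits passed in no pair of groups. It was 1.13 in 3X trained and 1.14 in 3X mock flies (exact permutation p 0.552), and 1.08 in both 1X groups (exact permutation p 0.825). Its log2 difference between the 3X and the 1X mock group was 0.09 (exact permutation p 0.0195, adjusted 0.0584), and between the trained groups 0.06 (exact permutation p 0.139, adjusted 0.185).

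**Figure D3:**
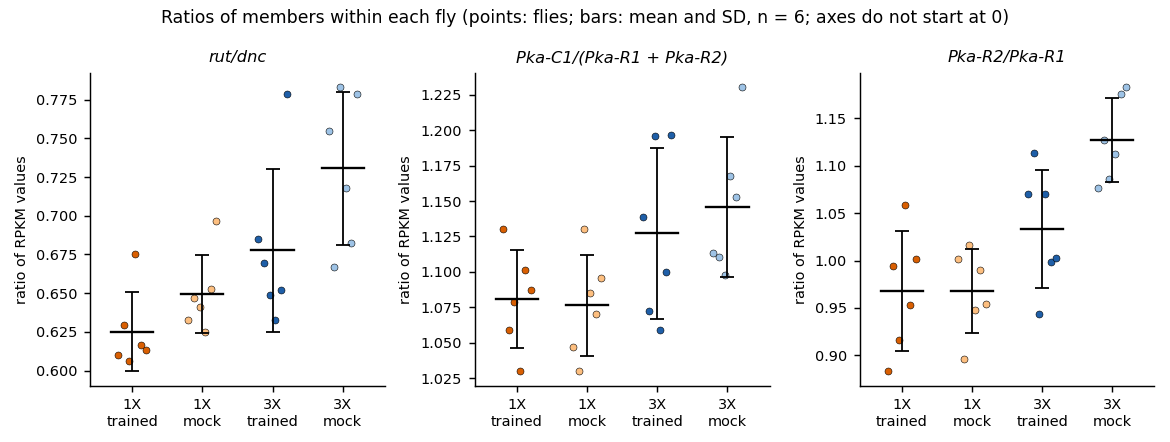
Ratios of RPKM values within each fly (vertical axes, not starting at 0) for rut over dnc, Pka-C1 over the sum of Pka-R1 and Pka-R2, and Pka-R2 over Pka-R1; points are flies, and bars show the mean and SD of 6 flies in each group. For Pka-R2 over Pka-R1, the 6 points of 3X mock flies (1.08 to 1.18) all lie above those of 1X mock flies (0.896 to 1.02).

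In the pathways around the members, 5 genes were called after 1X training and 1 after 3X training. Of 95 genes listed in 8 groups, 87 were matched to the table and 84 were tested. After 1X training 3 were called higher and 2 lower in trained flies, together 5.95% of those tested, where 4.94% of all genes were called. The gene called after 3X training is 1.19% of them, where 2.27% of all genes were called, and for the difference between the effects none was. At an unadjusted p below 0.05 there were 13, 21 and 9 of them, against 20.8%, 21.2% and 11.6% of all genes. Between schedules 4 were called in mock flies (4.76%, against 4.34% of all genes) and 7 in trained flies (8.33%, against 11.1% of all genes).

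Among the genes that couple receptors to cAMP, 1 of 12 was called after 1X training and none after 3X training. Of all genes 4.94% were called after 1X and 2.27% after 3X. Over all the pathway lists these shares were 5.95% and 1.19%, so single calls in short lists are not set apart from the table as a whole. Galphai, the G protein subunit that inhibits adenylyl cyclase, averaged 30.4 ± 4.93 RPKM in 1X trained flies, against 23.7 ± 0.826 RPKM in their mock group (SD, n = 6 each), with all 6 trained flies above all mock flies. Its change was 0.34 ± 0.07 (SE, limma adjusted p 0.00955). After 3X it was 0.13 ± 0.07 (adjusted p 0.309). Of the 5 other phosphodiesterase genes, 2 were called after 1X and none after 3X. Pde9 rose by 0.37 ± 0.08 and Pde8 fell by 0.13 ± 0.04 after 1X (SE, limma adjusted p 0.00872 and 0.0371). Akap200, which encodes an anchoring protein of protein kinase A, fell to 28.6 ± 5.52 RPKM in 1X trained flies, against 40.7 ± 4.48 RPKM in 1X mock flies (SD, n = 6 each, limma adjusted p 0.0372).

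Around Nf1, 1 of 14 genes of the Ras-MAPK pathway was called after 1X training and 1 of 14, another gene, after 3X training. Of all genes 4.94% and 2.27% were called. The adaptor gene drk averaged 18.9 ± 0.742 RPKM in 1X trained and 16.4 ± 0.504 RPKM in 1X mock flies, a change of 0.20 ± 0.04 (SE, limma adjusted p 0.00538). jeb, the ligand of the receptor tyrosine kinase Alk, averaged 10.9 ± 1.48 RPKM in 3X trained and 8.82 ± 0.728 RPKM in 3X mock flies, a change of 0.27 ± 0.07 (SE, adjusted p 0.0454). Alk was 9.71 ± 0.501 RPKM in 3X trained and 11.1 ± 0.806 RPKM in 3X mock flies, short of the threshold (adjusted p 0.0641), and it fell between the trained groups, with a change of -0.25 ± 0.05 in 3X relative to 1X (SE, adjusted p 0.00316). No gene was called after either training among the 9 CREB partners, the 12 tested Orb2 partners and translational repressors, the 9 genes around CaMKII and the 17 other memory genes. At an unadjusted p below 0.05 there were 2, 3, 0 and 2 of them after 1X and 2, 4, 0 and 5 after 3X. In those lists Sik2, a kinase of the CREB coactivator Crtc, was higher in 3X than in 1X flies, mock and trained (0.15 and 0.14 on the log2 scale), and sra, a calcineurin regulator, was lower in both (-0.16 and -0.20). The translational repressor brat and the phosphatase gene Ptp10D were lower in 3X than in 1X trained flies (-0.15 and -0.19).

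Flies of 1 group also differed from each other, and some members varied together. Over the 24 flies, with group means removed, 33 of the 45 pairs of members had a positive Pearson r, with a median of 0.17. 4 pairs passed a permutation test within groups after adjustment over the 45 pairs. They were CaMKII with Pka-R2 (r = 0.66, rho = 0.58, permutation p 0.0026, adjusted 0.0384), CaMKII with Pka-R1 (r = 0.63, rho = 0.67, permutation p 0.0011, adjusted 0.0252), orb2 with CaMKII (r = 0.62, rho = 0.61, permutation p 0.0043, adjusted 0.0484) and amn with Pka-C1 (r = 0.66, rho = 0.74, permutation p 0.0011, adjusted 0.0252). By Spearman's rho 2 of them passed, CaMKII with Pka-R1 and amn with Pka-C1 (adjusted permutation p 0.0171 and 0.0081). Without the 2 flies farthest from the median, r was 0.40, 0.62, 0.61 and 0.62 in the order given.

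Within the groups the 4 pairs gave r of 0.17 to 0.95 over 6 flies each, all positive. Without 3X mock replicate 6 none of the 45 pairs passed, with r of 0.57 to 0.69 in these 4 and an adjusted p of 0.0528. Without 1X trained replicate 1, 1 pair passed. All points share the library and its scaling. CrebB and Nf1 had r between -0.36 and 0.20 to every other member. Low values were not particular to them. To orb2, CaMKII and the protein kinase A genes, dnc had r of -0.06 to 0.17 and rut 0.11 to 0.34. amn had 0.09 to 0.24 to the same genes except Pka-C1.

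**Figure D4:**
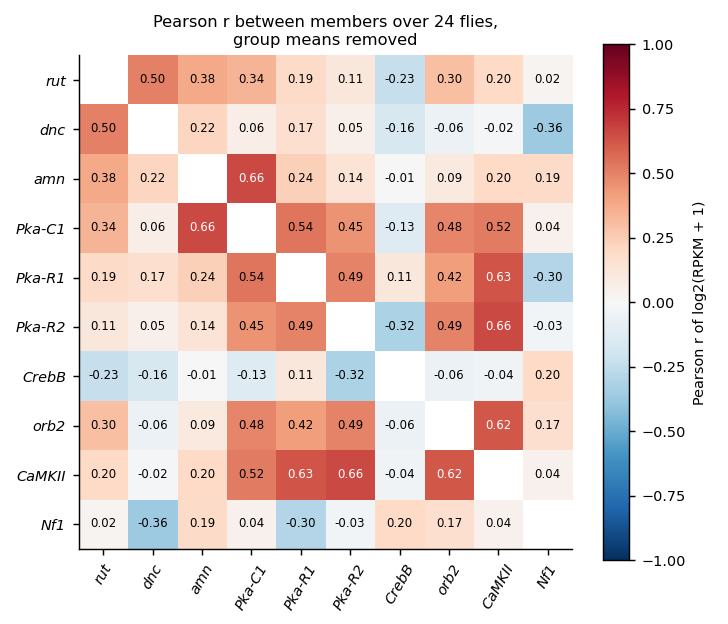
Pearson r of log2(RPKM + 1) between each pair of members over 24 flies after group means were removed (colour and printed value, from -1 to 1). CaMKII, orb2 and the 3 protein kinase A genes have r of 0.42 to 0.66 to each other. Of these pairs, only CaMKII with orb2, Pka-R1 and Pka-R2 passed the adjusted test. CrebB and Nf1 show r between -0.36 and 0.20 to every other member, and dnc -0.06 to 0.17 to CaMKII, orb2 and the protein kinase A genes.

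For every member the gene with the highest r lay outside the list. The list is a small part of the 10546 other genes, so this does not speak to how the members relate. The gene whose levels followed those of orb2 most closely was CG43783, its overlapping neighbour (r = 0.98 over 24 flies), followed by Cka (0.81) and ena (0.81). For dnc the closest gene has no symbol in the tables used (0.92), followed by Sh, a potassium channel gene (0.91), and nmo (0.90). The levels of rut were followed by l(3)neo38 (0.74) and Hk, a potassium channel subunit gene (0.73), and those of Nf1 by snoRNA:Psi18S-1347b (0.78) and Helz (0.77). Pka-R2 was closest to lap (0.89) and to Rab3 (0.83), whose products act at synaptic vesicles. Highest for CaMKII was CG32017 (0.86), for Pka-C1 a small nucleolar RNA gene, snoRNA:Me28S-G764 (0.78), for Pka-R1 CG12672 (0.81), for amn Lrp4 (0.82) and for CrebB CG34051 (0.76). Across all 10546 other genes the median r to a member was between -0.04 and 0.02, and 5% of genes exceeded 0.39 to 0.52.

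All members are long, with 3953 to 16683 exonic bases. Length moved with direction across the genes tested that have a length in the annotation. After 3X, 75.5% of the 444 genes of 8 kb or more were lower in trained flies, 76.5% of the 885 genes of 5 to 8 kb, 57.1% of those of 2 to 5 kb and 32.7% of those under 2 kb. Among the members, 4 have 8 kb or more (rut, dnc, orb2 and Nf1), 2 have 5 to 8 kb and 4 have 2 to 5 kb. Of the 8 members lower after 3X, 3 have 8 kb or more, 1 has 5 to 8 kb and 4 have 2 to 5 kb. So 4 of 4 members of 2 to 5 kb were lower, and 1 of 2 members of 5 to 8 kb. The median change of all genes of 8 kb or more was -0.05, and the 4 members of that length changed by -0.22 (orb2), -0.18 (Nf1), -0.09 (rut) and 0.01 (dnc). Between the trained groups 82.2% of the longest genes were lower after 3X, with a median of -0.07. Between the mock groups 75.2% were, with a median of -0.04. Of the members called between the schedules, only Nf1 has 8 kb or more. Pka-R1 has 5167 exonic bases. Among genes of 5 to 8 kb, 52.8% were lower after 3X between the mock groups, with a median of -0.006. Between the trained groups 72.3% of them were, with a median of -0.06. CrebB has 4995 exonic bases, just under the limit of 5 kb. Among genes of 2 to 5 kb, 50.98% were lower between the trained groups, with a median of -0.004. The part of length in the members' changes was not tested.

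**Figure D5:**
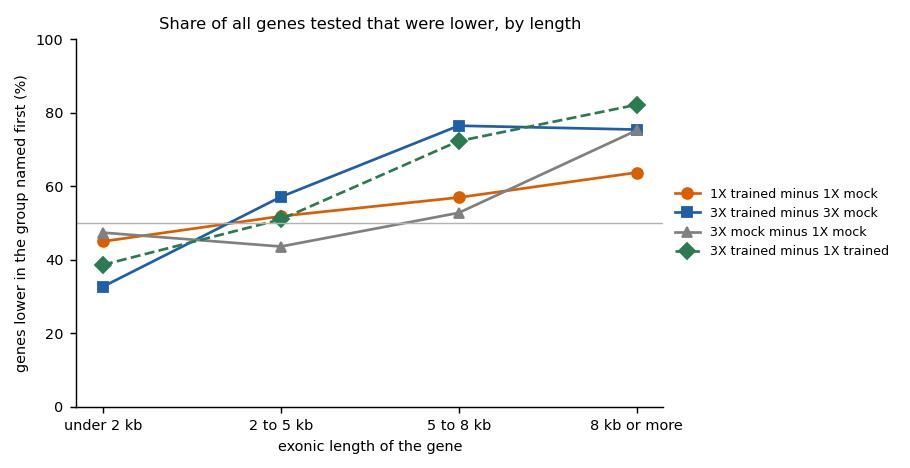
Share of genes tested that were lower in the group named first (vertical axis, %) by exonic length (horizontal axis) in 4 comparisons. Genes with no length in the annotation were left out. After 3X training (squares) the share is 32.7% under 2 kb and 75.5% at 8 kb or more; between the trained groups (diamonds) it reaches 82.2%.

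Markers of other cell types were read beside these values. None of the 7 neuronal marker genes was called in any of the 5 comparisons, with 1 at an unadjusted p below 0.05 after each training, and their median change was -0.05 with 1X and -0.03 with 3X training. Between the schedules 7 of 7 were lower in 3X than in 1X mock flies (median -0.08, 2 at an unadjusted p below 0.05) and 6 of 7 in 3X than in 1X trained flies (median -0.09, 1 at an unadjusted p below 0.05). Their summed level was 353 to 395 RPKM in 3X trained and 369 to 394 RPKM in 3X mock flies. It was 361 to 414 RPKM in 1X trained and 383 to 422 RPKM in 1X mock flies. Glial marker genes (0 of 6 called) summed to 1351 to 1635 RPKM in 3X trained and 1270 to 1574 RPKM in 3X mock flies. Some photoreceptor genes were called between the schedules, where 4.34% of all genes were called in mock and 11.1% in trained flies. Of 8, 3 were called higher and 1 lower in 3X than in 1X mock flies, and 2 higher and 1 lower in 3X than in 1X trained flies, with medians of 0.08 and 0.09. After training 0 of 8 were called, and 8 of 8 were lower in 3X trained than in 3X mock flies (median -0.06, 2 at an unadjusted p below 0.05). The 7 fat body genes summed to 662.7 to 8505 RPKM in 1X trained and 5362 to 10252 RPKM in 1X mock flies. Of the 6 tested, 1 was called after 1X, higher in trained flies, where 4.94% of all genes were called. Of these 6, 5 were lower and 4 had an unadjusted p below 0.05, against 20.8% of all genes. After 3X the 7 fat body genes summed to 1908 to 5536 RPKM in trained and 3526 to 8209 RPKM in mock flies. Of the 6 tested, 0 were called and 2 had an unadjusted p below 0.05, against 21.2% of all genes. Of 6 hemocyte genes, 6 were higher in trained flies after 1X and 4 after 3X. Of 3 muscle genes tested, 3 were lower after 1X and 2 after 3X. No hemocyte or muscle gene was called. The part of these cell types in the results for orb2, Pka-R1, CrebB and Nf1 was not tested.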

How the data were processed

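The authors deposited 1 table of RPKM values with a column for each of the 24 flies. According to the submitters' processing notes, which name the dm6 build, bcl2fastq 2.18, TopHat2 2.0.13 and edgeR 3.18.1 were used; another section of the study's methods names an older aligner version and build. How reads of overlapping genes were assigned is not given in the sources used here. Symbols were matched for 17253 of 17559 identifiers, and positions come from the Ensembl annotation of the same build. Whole reads were recovered from RPKM times gene length for all but 1 gene above 0.

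Values were taken to log2(RPKM + 1). The 10547 genes that reached 1 RPKM in 6 or more flies were fitted with limma 3.58.1 (eBayes with trend, R 4.3.3) as 4 group means over all 24 flies, and p-values were adjusted by Benjamini-Hochberg over all of them at 0.05, two-sided. Nothing in the labels says that replicate numbers mark a shared day. Ratios and correlations were tested in Python 3.11.15 with numpy 2.4.6, the correlations with 100000 permutations within groups. The fit and the read recovery were tested on simulated data. The changes simulated for the fit were larger than any found for the members, so that test does not speak to changes of their size. From each pathway list, up to 3 called genes with the smallest p were named, and for each member up to 3 genes with the highest r. Alternatives covered the pseudocount (0.1 and 0.5), the filter, the scaling, fly weights, voom on recovered reads, a replicate block and leaving out each fly. Of the genes listed, some did not match the table and were not analysed here. The members and lists were chosen with earlier results of these data known. No sequence of the members was used here.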

Additional observations from a re-analysis of the deposited data

Results flagged for a closer look

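Of 52 groups of 6 values examined, 3 held a fly far from the others, where chance gives about 1 in 20 groups, or 2.60. rut was lowest in 1X trained replicate 1, at 7.40 RPKM against 7.87 to 8.07 RPKM in the other flies of that group, a gap of 0.715 of the group's range. dnc was highest in 1X mock replicate 4, at 13.7 RPKM against 12.0 to 12.6 RPKM, a gap of 0.655 of the range. The ratio of rut to dnc was highest in 1X trained replicate 4, the library with the fewest reads, at 0.675 against 0.606 to 0.629, likewise a gap of 0.655 of the range.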

How the results depend on the processing

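Of 530 changes of members under alternatives that keep all flies, 508 kept their direction and their side of the threshold, 7 newly passed it, 3 no longer did and 12 turned direction. The call of orb2 after 3X was lost in the fit of the 12 flies compared, where 0 members and 54 genes were called after 3X and 568 genes between the trained groups. After 3X, 2 members were called with median-ratio scaling, with quantile normalization and with voom with the authors' library sizes (chosen after seeing the data). The directions that turned belonged to changes near 0. With quantile normalization CaMKII and Pka-R1 had -0.017 and -0.014 for the difference between the effects, and Nf1 and Pka-C1 -0.013 and 0.0088 between the mock groups. With arrayWeights CaMKII and Pka-R1 had -0.011 and -0.012 for the difference. With voom on recovered reads rut and amn had 0.0326 and 0.0331 after 1X, CaMKII and Pka-R1 -0.0551 and -0.0612 for the difference, and CaMKII and Pka-C1 0.0071 and 0.0351 between the mock groups. That scaling by plain read totals moved the median of all genes after 1X to 0.07, and with it 1 member (Nf1) was called for the difference and 0 between the mock groups, where Pka-R1 was lost. It called 798 genes after 1X, 110 after 3X and 32 for the difference. With arrayWeights 894, 382 and 120 were called in these and 728 between the mock groups, and with no filter 345, 109 and 9.

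Leaving out 1 fly at a time gave 302 to 608 genes after 1X, 26 (without 3X trained replicate 3) to 612 (without 3X trained replicate 6) after 3X and 3 to 107 (without 1X trained replicate 1) for the difference. Members called then ran from 0 to 2 after 3X and from 3 to 5 between the trained groups. Small changes turned, within these ranges: Pka-R2 -8.95e-05 to 0.0659 after 1X and -0.0051 to 0.0299 between the mock groups, dnc -0.0186 to 0.0395 after 3X and -0.0347 to 0.0234 for the difference, amn -0.0613 to 0.0144, CaMKII -0.011 to 0.0501 and Pka-R1 -0.014 to 0.0322 for the difference, Nf1 -0.0206 to 0.0341 and Pka-C1 -0.0245 to 0.011 between the mock groups, and CaMKII -0.0434 to 0.0177 between the trained groups. The cause of these changes was not tested.

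For the ratios, the test by medians has a higher smallest possible p than that by means, so a count of 0 there does not decide whether a call is weak. Of the ratios, 1 to 6 passed when 1 fly was left out and 0 when medians replaced means, where Pka-R2 over Pka-R1 after 1X turned to 0.00185 on the log2 scale. It ran from -0.0275 to 0.025 without 1 fly, and Pka-C1 over the regulatory subunits from -0.0068 to 0.0204. Of the pairs of members, 0 passed without 3X mock replicate 6 and 1 without 1X trained replicate 1 (chosen after seeing the data). Same-numbered flies of 2 groups had correlations of -0.24 to 0.15, so the replicate numbers were not taken as pairs. With the replicate block 8 genes were called for the difference and 10 member pairs passed, and the calls of members stayed at 0, 1, 0, 1 and 3. amn and Nf1 did not reach the stricter filter and have no value there, and the fit of the flies compared gives none for the difference. Depth limits amn most, at 206 to 604 reads.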
